A study of Homo sapiens with 8 samples.

Results

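SLC23A2 encodes a sodium-dependent vitamin C transporter, and the H3K27ac peaks around it were followed in A549 cells with and without CEBPB knockdown. The window ran from 4.75 to 5.05 Mb of chromosome 20 (hg19), and in that build the gene spans 4.833 to 4.991 Mb on the minus strand. All peaks overlapping the window were taken, 59 of the 186774 peaks that the 4 libraries had on chromosomes 1 to 22 and X. Of the 59 peaks, 17 came from control 1, 20 from control 2, 10 from the siRNA-1 library and 12 from the siRNA-2 library. The window was chosen by the called peak length in these same 4 lists, which was shorter after knockdown. Differences between the treatments are therefore given as a description, with no test. With 2 libraries against 2, an exact permutation p could in any case not go below 0.333.

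A549 is an established human lung adenocarcinoma line with constitutively active NRF2, a transcription factor of the oxidative stress response. The controls received a control siRNA, and the knockdown libraries received 1 of 2 siRNAs directed at CEBPB, a transcription factor of the C/EBP family. Medium was replaced 24 h after transfection and chromatin was taken after a further 24 h, 48 h in all. Each knockdown library used a different siRNA, so the spread between them includes any difference between the siRNAs, and the labels do not say that the controls came from separate cultures. The libraries do not measure how far CEBPB itself was lowered, nor the level of SLC23A2 transcripts.

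The transporter, also known as SVCT2, carries the reduced form of vitamin C, ascorbate, into cells together with sodium. Its relative SLC23A1 serves mainly the absorbing epithelia of gut and kidney, while the oxidised form of the vitamin enters cells through glucose transporters. Inside the cell ascorbate is an antioxidant and a cofactor of iron-dependent dioxygenases, among them enzymes that remove methyl groups from histones and DNA. H3K27ac is an acetylation of histone H3 found at active promoters and enhancers, and long unbroken stretches of it mark groups of strong enhancers.

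Acetylation inside SLC23A2 was called over a much shorter stretch after CEBPB knockdown. Called length, the number of bases under a peak, inside the gene was 26.6 kb in control 1 and 24.6 kb in the other control. With siRNA-1 it was 6.26 kb, and siRNA-2 left 5.50 kb. Both knockdown libraries lay far below both controls, and the groups did not overlap. The means were 25.6 ± 1.36 kb (SD, n = 2) in controls and 5.88 ± 0.535 kb (SD, n = 2) after knockdown, or 23% of the control mean. Peaks covered 16.8% and 15.6% of the gene in the controls, and with the siRNAs only 3.96% (siRNA-1) and 3.48% (siRNA-2) of it. The difference of -19.7 kb was larger than the spread within either group.

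**Figure D1:**
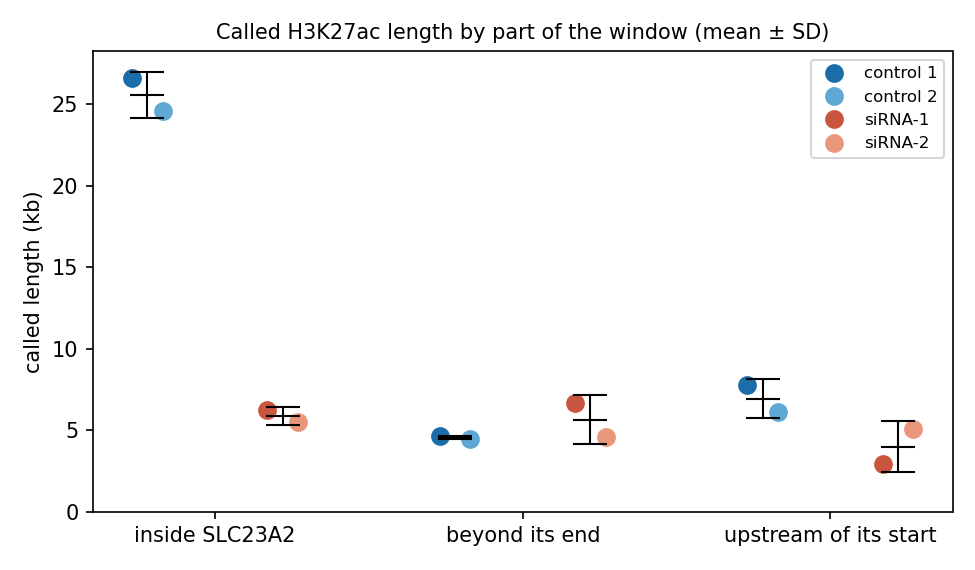
Called H3K27ac length in kb (vertical axis) in the 3 parts of the window (horizontal axis), with 1 point per library and bars for the mean ± SD of 2 libraries. Inside SLC23A2 the controls sit at 26.6 and 24.6 kb and the knockdown libraries at 6.26 and 5.50 kb, while beyond its end the groups overlap.

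Over the whole window, called length was 39.0 and 35.2 kb in controls 1 and 2. The siRNA-1 library had 15.9 kb, and the siRNA-2 library 15.2 kb. The knockdown mean was 41.9% of the control mean. In all non-overlapping windows of 300 kb with a peak in both controls, called length was shorter in both knockdown libraries than in both controls in 31.2% of 6685 windows. In 10.2% it was also at most 50% of the control mean, as it was here. The total called length of the libraries did not follow this order, since siRNA-1 had the longest total, 70.4 Mb, and siRNA-2 the shortest, 61.7 Mb. Per Mb of its own total, control 1 had 574 bp in the window, control 2 had 568 bp, siRNA-1 had 226 bp and siRNA-2 had 247 bp. Read counts are not part of these lists, so depth is unknown, and a base outside a peak is a base without a call and not a base without acetylation.

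Most of the acetylated length inside the gene lay in a single block. The block, chromosome 20 from 4936594 to 4959480, was 22.9 kb long and lay between 31.5 and 54.4 kb inside the gene from its start. In control 1 it consisted of 2 peaks, the longer of 21.4 kb. In control 2 it consisted of 3 peaks, the longest of 19.4 kb. The outer edges of the block agreed closely between the controls, 29 bp apart on the far side and 71 bp apart on the side near the gene start. The longest peak had a fold enrichment (the authors' ratio of signal to background at the summit) of 46.7 in control 1 and 44.3 in control 2. By its −log10 q, the measure of confidence in a peak, it ranked at percentile 98.6 of the control 1 list and 98.8 of the control 2 list.

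After knockdown the block was broken into short peaks over its middle part. The controls had 22.7 and 21.7 kb called in the block, siRNA-1 had 5.56 kb and siRNA-2 had 5.28 kb. The number of peaks was not lower, with 3 for siRNA-1 and 4 for siRNA-2. The longest peak measured 2.98 kb (siRNA-1) and 3.01 kb (siRNA-2), at percentiles 76.5 and 82.2 of their lists. The remaining peaks reached from 44.5 to 35.2 kb inside the gene in the siRNA-1 library and from 44.2 to 35.1 kb in the siRNA-2 library. The siRNAs agreed on these limits to within 335 bp on the far side and 118 bp on the near side, so different siRNAs left nearly the same remnant.

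**Figure D2:**
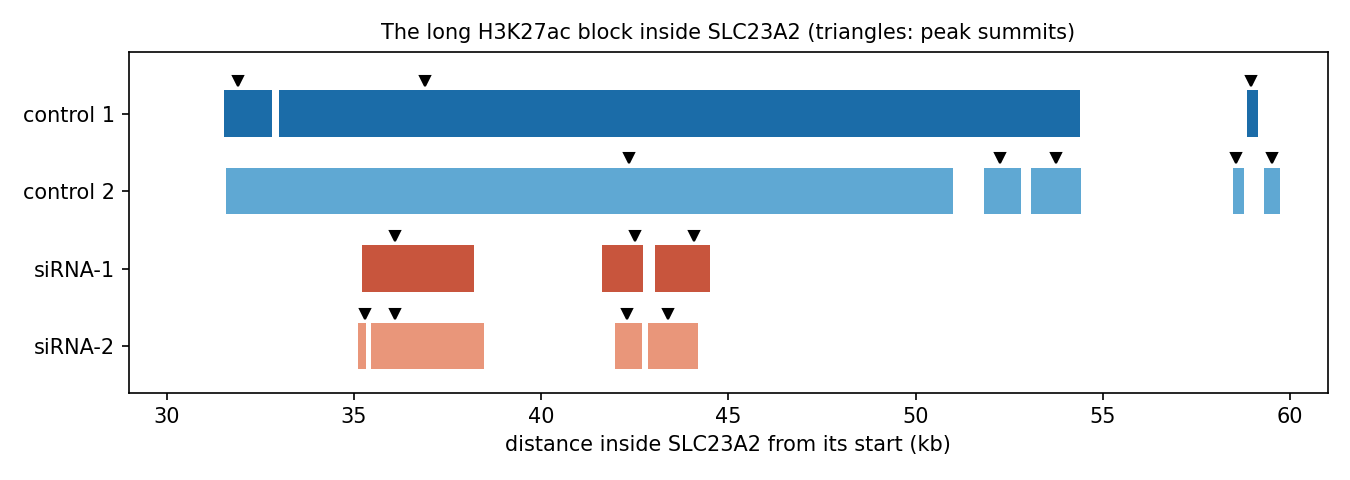
Peaks of the 4 libraries (rows) in the long block, by distance inside SLC23A2 from its start in kb (horizontal axis), with each bar a peak and each triangle its summit. The controls fill the block almost without a gap, and the knockdown libraries keep peaks only between 35.1 and 44.5 kb.

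The remnant included the position of the leading summit of each control. The highest summit of the block lay 36.9 kb inside the gene in control 1 and 42.4 kb inside it in control 2, 5461 bp apart. With either siRNA the leading summit lay 36.1 kb inside the gene, and these summits were 5 bp apart. That is 795 bp from the leading summit of control 1 for siRNA-1. Near the leading summit of control 2, siRNA-1 had a summit 163 bp away and siRNA-2 a summit 61 bp away. Both of these positions thus still had a peak in both knockdown libraries, of 1.10 kb and 0.712 kb at the second position. A further peak covered neither position. It measured 1.49 kb with siRNA-1, with its summit 44.1 kb inside the gene, and 1.34 kb with siRNA-2, at 43.4 kb.

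The flanks of the block held most of the length that was no longer called. In all, 15.3 kb of the block had a call in each control but with neither siRNA. Of this, 8.74 kb (57.0%) lay on the side far from the gene start, before the first knockdown peak. Between the remaining peaks lay 3.28 kb (21.4%), nearly all of it in 1 stretch of 3.16 kb from 4949378 to 4952537. The side near the gene start held 3.31 kb (21.6%). No base of the block was called by both siRNA libraries without a call in a control.

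Long regions that were called in all libraries seldom changed this much. The merged block counts as kept, since each library had a peak in it. By its mean length in controls it ranked 71 among 24133 kept regions. Its length after knockdown was 24.4% of the control mean, where the median ratio over kept regions was 1.01. In 4.99% of kept regions both knockdown libraries were shorter than both controls with a mean of at most 50%. Of the 564 kept regions with 10 kb or more in controls, 2.13% met that rule, and the block had the lowest ratio among them, 0.244. Since the window was chosen by this contrast, its place in that order is no independent result.

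A shorter region nearer the gene start showed the same pattern. It lay at chromosome 20 from 4980530 to 4982624, with summits within 192 bp of each other in all 4 libraries, about 9 kb inside the gene. Each control had 1.85 kb called there, the siRNA-1 library 0.295 kb and the siRNA-2 library 0.226 kb, or 14.1% of the control mean. Its fold enrichment was 8.83 in control 1 and 7.39 in control 2, and the peaks called after knockdown were among the weaker ones of their lists, at percentiles 7.05 and 30.3.

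The start of SLC23A2 itself carried no peak in any library. Within 5 kb of 4.991 Mb, on either side, 0 peaks were called in the 4 lists. The nearest peak edge lay 8.38 kb inside the gene, and the nearest upstream edge 12.3 kb away. Promoters of expressed genes usually carry H3K27ac, and transcription was not measured here. The gene span is known to the nearest kb only, and starts of shorter transcripts were not placed on the peaks.

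The rest of the gene held short peaks. Outside the block and the region near the start, 6 merged regions lay inside the gene, and none had a fold enrichment above 5.06. One of them, from 4897374 to 4898732, had peaks in both controls (1.36 kb and 0.372 kb) and none with either siRNA. The other 5 were each called in 1 library only, 4 in a control and 1 with siRNA-1, the latter of 0.401 kb from 4850528, with a −log10 q of 12.5 and at percentile 49.5 of its list. Joining peaks within 12.5 kb put 3 of these short regions and the block into 1 cluster of 28.2 kb. Its called length was 23 and 22.4 kb in the controls and the same 5.56 and 5.28 kb with the siRNAs, or 23.9% of the control mean. Of 19091 such clusters with a peak in both controls, 18.0% were shorter in both knockdown libraries and at most 50% of the control mean.

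**Figure D3:**
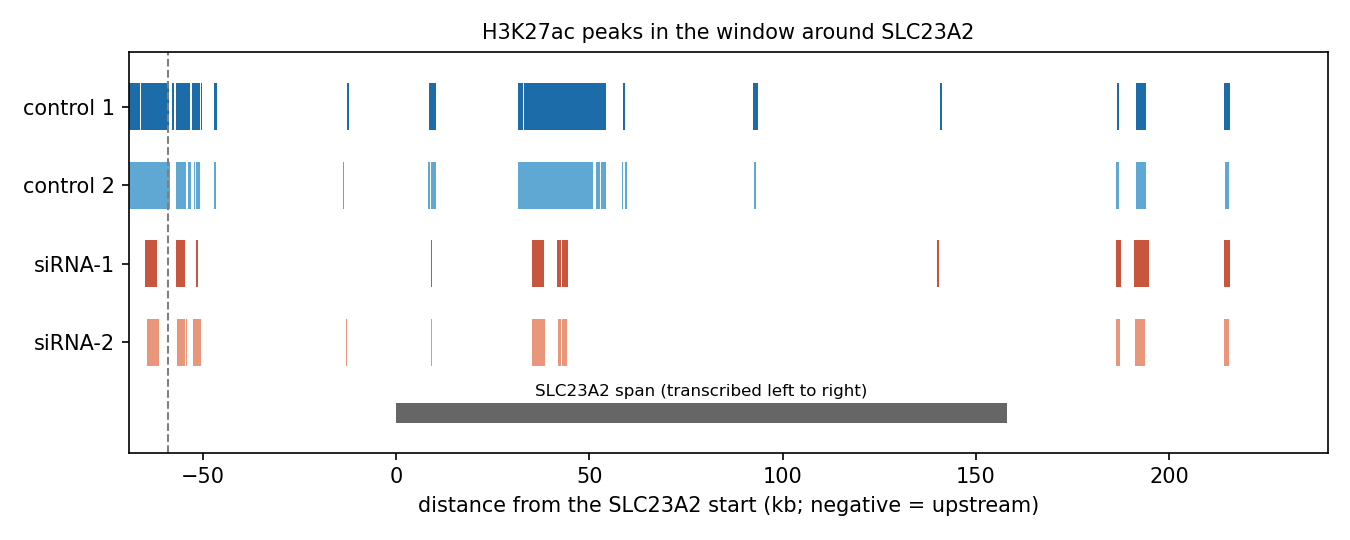
All peaks of the window in the 4 libraries (rows) by distance from the SLC23A2 start in kb (horizontal axis, negative values upstream). The grey bar is the gene, and the dashed line is the upstream edge of the window, 4.75 to 5.05 Mb in all. The 3 regions beyond the end of the gene have a peak in every library, and no peak lies at its start.

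Beyond the end of SLC23A2, on the side of its neighbour RASSF2, a tumour suppressor gene of the RAS association domain family, called length was not lower in both knockdown libraries. The regions there were not placed relative to RASSF2 itself. All 3 regions there were called in every library. Their summed length was 4.65 and 4.50 kb in controls 1 and 2, 6.71 kb for siRNA-1 and 4.62 kb for siRNA-2. Only siRNA-1 stood apart, above the other libraries. The strongest of the 3, from 4796056 to 4799967, measured 2.60, 2.69, 3.91 and 2.57 kb in the same order. By −log10 q it ranked at percentiles 85.8, 87.3, 90.8 and 89.9 of the 4 lists. The region from 4803507 to 4804763 was longer in both knockdown libraries, with 0.577 and 0.767 kb in the controls against 1.26 and 0.881 kb. This happened in 26.9% of kept regions over all chromosomes. The third region, from 4775242 to 4776783, measured 1.47 and 1.04 kb in the controls against 1.54 and 1.17 kb, and the groups overlapped.

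Upstream of SLC23A2, towards TMEM230 and PCNA, the latter encoding the sliding clamp of DNA replication, the picture inside the window was mixed. Called length there was 7.79 and 6.10 kb in controls 1 and 2, 2.92 kb for siRNA-1 and 5.10 kb for siRNA-2. The groups did not overlap, but siRNA-2 lay only 1.0 kb below control 2. Both knockdown libraries were also shorter in 31.2% of 300 kb windows with a peak in both controls, windows wider than this part. The region from 5045108 to 5048016, the strongest of those wholly inside the window here, was nearly as long in all libraries, at 2.83, 2.48, 2.35 and 2.47 kb, and its summits lay within 62 bp. Both knockdown values lay below both controls here too, as in 25.6% of kept regions. A region across the window's edge, from 5049675, had a higher −log10 q in both controls (383 and 369, against 231 and 181) and was shorter after knockdown. A neighbour from 5041188 to 5043846 measured 2.47, 1.36, 0.567 and 2.25 kb, so the groups overlapped. Joined within 12.5 kb, the peaks from 5037419 on formed a cluster that ran past the window to 5111884. Its called length was 31.9 and 28.4 kb in controls 1 and 2. The knockdown libraries had 11.9 and 13.8 kb there, siRNA-1 first, or 42.6% of the control mean. The difference of -17.3 kb was as large as that of the cluster inside SLC23A2, which kept 23.9%.

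The upstream region at 5045108 became the leading one of the window in both knockdown lists. In the controls the block inside the gene exceeded it, with 46.7 against 38.7 in control 1 and 44.3 against 34.2 in control 2, where the region across the window's edge stood highest, at 44.6. With siRNA-1 the upstream region had a fold enrichment of 22 and the strongest peak of the block 12.2. With siRNA-2 these were 25 and 13.0. Each of these pairs compares peaks within a single list, since fold enrichments depend on the depth of a library and were not compared between lists.

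Small regions present in both controls, most of them weak, were missing from both knockdown lists at 4 places. Merging overlapping peaks gave 21 regions in the window, of which 12 were called in both controls and 8 in both knockdown libraries. Of the 12, 4 were called in neither knockdown library, where 13.3% of regions called in both controls were over all chromosomes. Of the 8, 0 were called in neither control, where the share over all chromosomes was 13.6%. Among only 8 regions, a count of 0 is near that share. The 4 missing regions measured between 0.238 and 1.36 kb. Only that from 5037419 to 5038178 reached a −log10 q of 10 in the controls, with 22.6 and 12.9. Another 9 regions were called in 1 library only. Of the 8 regions called everywhere, 3 were shorter in both knockdown libraries with a mean of at most 50%, where 4.99% of kept regions were over all chromosomes. These were the block, the region near the gene start and a region across the window's edge.

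The edge of the window cuts that last region. It runs from 5049675 to 5057146 and measured 7.41 and 7.38 kb in controls 1 and 2, and 3.09 and 2.96 kb for the siRNAs. The control peaks reach a short way into the window, while both knockdown peaks lie just outside it and so are not among the 59. Lengths in the window count only the bases inside it. Its summits lay within 128 bp of each other in all 4 libraries. Just outside the window, the next region upstream, from 5057345 to 5063172, measured 5.83 and 5.09 kb in the controls against 1.13 and 0.758 kb. On the other side the nearest region outside, from 4741264 to 4743215, measured 1.95 and 1.64 kb against 0.782 and 0.602 kb. Further upstream, the region from 5079070 to 5082951 measured 3.45 and 3.58 kb in the controls and had no call in either knockdown library. Shorter or missing calls were thus found beyond both edges as well, and the 3 regions beyond the end of the gene lay between them. Over all chromosomes, both knockdown libraries were shorter in 25.6% of kept regions, and in 4.99% their mean was also at most 50% of the control mean. Of regions called in both controls, 13.3% were called in neither knockdown library.

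Counted base by base, 33.0 kb of the window was called in both controls, and 35.0% of it was called in both knockdown libraries. Another 4.42% had a call from siRNA-1 alone and 4.34% from siRNA-2 alone, and 56.2% was called with neither. Over chromosomes 1 to 22 and X, 73.8% of such bases were called with both siRNAs and 12.4% with neither, and on chromosome 20 the shares were 73.1% and 13.8%. Inside SLC23A2 20.8% was called with both and 72.3% with neither. Beyond the end of the gene 92.1% was called with both and 0% with neither, and upstream of it 52.6% and 29.8%. Of the bases called in both knockdown libraries, 2.0% in the window were new relative to the controls, against 12.6% over all chromosomes.

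**Figure D4:**
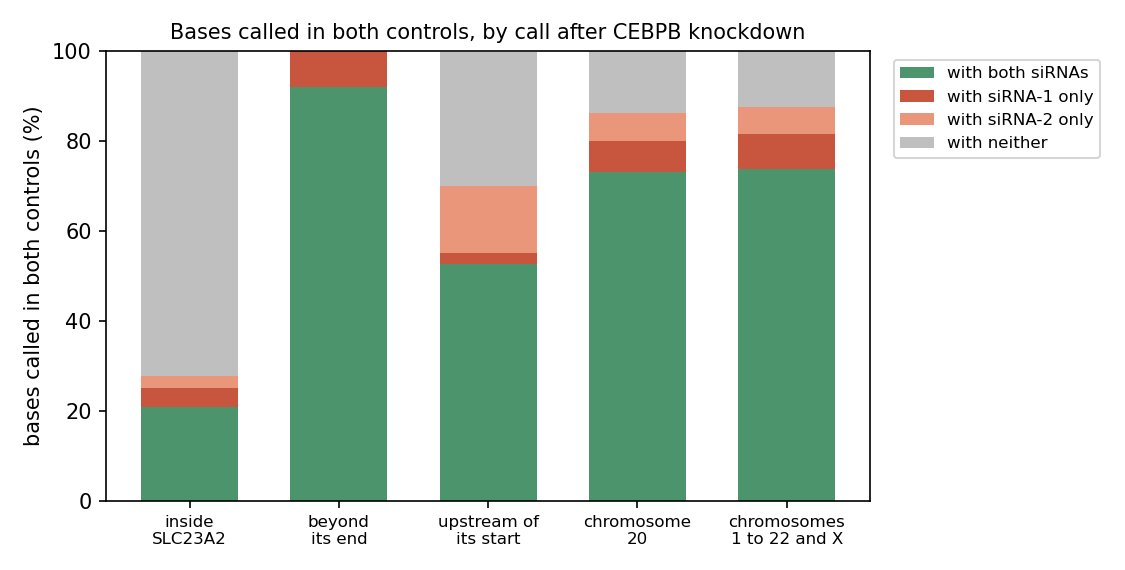
Bases called in both controls, as percent (vertical axis), by whether they were also called with both siRNAs, with only 1 or with neither, in the 3 parts of the window, on chromosome 20 and on all chromosomes used (horizontal axis). The share called with neither is 72.3% inside SLC23A2 and 12.4% over all chromosomes.

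The libraries of a treatment resembled each other in the window about as much as elsewhere. The Jaccard index, the bases called in both of 2 lists divided by those called in either, was 0.798 between the controls and 0.651 between the siRNAs. Over all chromosomes these were 0.765 and 0.659. Between a control and a knockdown library it ranged from 0.324 to 0.356 in the window, and from 0.574 to 0.613 over all chromosomes. Agreement in the window was thus lower between the treatments, and close to that elsewhere within them. Since the window was chosen by this contrast, the lower agreement is no independent result.

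The same count was made over windows with as much acetylation as this one. Of 262 windows of 300 kb with at least its control length, 8 (3.05%) met the rule of at most 50%, and 5 had a ratio at or below its 0.419. The median ratio was 0.923 in these windows and 1.01 in all 6685. Such windows tile the chromosomes, so the bases of this locus fall within them, and the counts are not independent of it. Since the window was chosen by this contrast, its place in that order is no independent result.

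**Figure D5:**
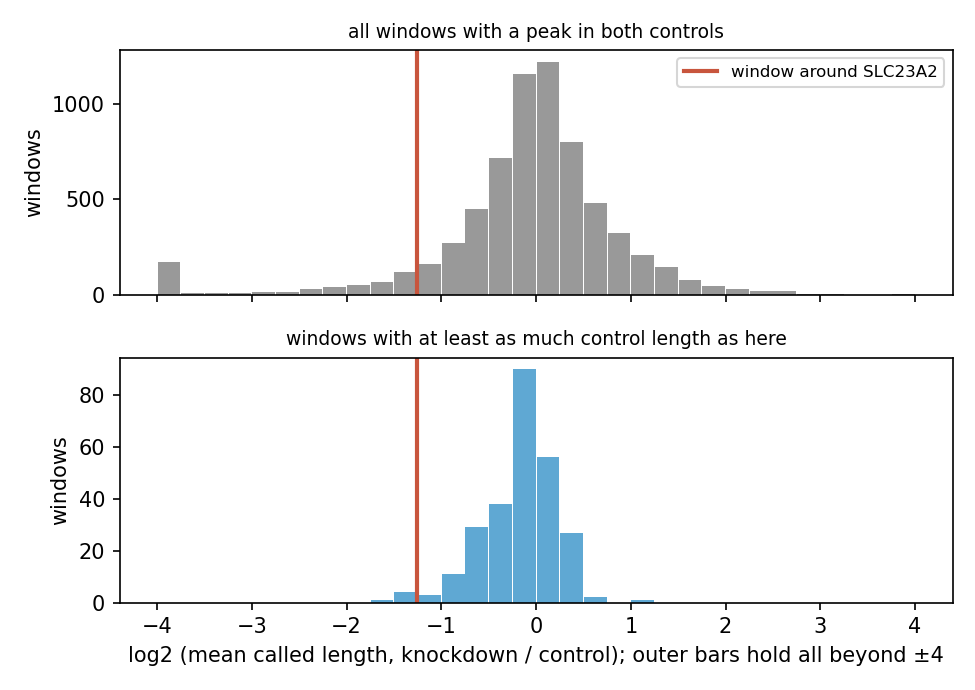
Number of 300 kb windows (vertical axis) by the log2 ratio of mean called length after knockdown to that in controls (horizontal axis), for all 6685 windows above and for the 262 with at least as much control length below. The red line marks the window around SLC23A2, chosen by this contrast, at a ratio of 0.419, in the lower tail of both.

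The clusters most like that of SLC23A2 lay on 5 other chromosomes. Likeness was the Euclidean distance between the 4 log2 called lengths, each set less its own mean, over 1050 candidate clusters called in every library with at least 50% of its control length. The nearest, on chromosome 5 from 100987834 to 101016724, had 25.4 and 20.9 kb called in the controls and 4.71 and 5.57 kb after knockdown, at a distance of 0.302. Next came a cluster on chromosome 19 from 3707756 to 3729235, with 12.4 and 10.6 kb against 3.42 kb with either siRNA. A cluster on chromosome 2 from 173842176 to 173871086 measured 15.1 and 14.4 kb against 3.30 and 4.39 kb. The remaining clusters lay on chromosome 21 from 39647513 (29.9% of the control mean) and on chromosome 6 from 7670457 (32.3%). These likenesses rest on 4 libraries, and genes were not placed on those clusters.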

How the data were processed

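H3K27ac chromatin immunoprecipitation was read as single ends of 101 bases, per the labels' protocols, in 4 libraries; 4 input libraries were not analysed here. MACS2 2.2.7.1, SAMtools 1.7.0, BWA 0.7.17 and build hg19 are named, per the submitters' processing notes, with options not given in the sources used here. The deposited lists, 1 per library, give for each peak a fold enrichment (a ratio) and a −log10 q by the authors, and the summit. Read counts are not in these lists, so depth is unknown.

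All peaks of chromosomes 1 to 22 and X were joined genome-wide at 1 bp overlap, or stitched within 12.5 kb, with Python 3.11.15 and numpy 2.4.6, checked on simulated data. Called length was clipped at the window and gene edges. No cluster held the gene start, so the cluster with most control-called bases inside the gene was used, a choice made after seeing the data. Regions named are those of 1000 bp or more called in a whole group, the strongest of each list, and smaller ones chosen after their values were seen. The members and lists were chosen with earlier results of these data known. Neighbouring genes were named by their order in RefSeq (GRCh38.p14), whose coordinates were not used, and other vitamin C genes were not placed.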

Additional observations from a re-analysis of the deposited data

How the results depend on the processing

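All 33 alternative values of a difference in kb or in peaks had the sign of the reported one, with fewer calls after knockdown. In the window the difference of -21.6 kb was -18.1 kb with only peaks of a −log10 q of 10 or more, and -28.7 kb with edge peaks counted whole, which was added after seeing the data. Paired by replicate number (replicate block), it was -23.1 kb for number 1 and -20.0 kb for number 2. Inside the gene -19.7 kb became -18.6 kb at that −log10 q. In the cluster -17.3 kb became -17.9 kb with lists of equal called length and -19.1 kb with stitching within 25 kb. The difference of -7.50 peaks in the window became -1.0 at a −log10 q of 10 or more and -4.50 with equal lists, so the number of peaks rests on weak ones. The count of regions missing after knockdown, 4 as reported, was 2 at that −log10 q and 1 with equal lists. Of the 4, only 1 reached that −log10 q in both controls. The other region counted there was that from 4980530, whose knockdown peaks (3.10 and 6.19) fell below the cutoff. Without each library in turn the count was 4 to 11. It was 11 without control 1 and 8 without control 2, since a region then needs 1 control only. By reciprocal overlap of 50%, which counts shortened peaks as different, 6 regions were missing after knockdown and 4 were gained. Gained regions, 0 as reported, were 0 to 1 without each library. Regions called everywhere, 8 as reported, were 5 at that −log10 q and 3 by reciprocal overlap. The 35.0% of control-called bases still called was 32.8% at that −log10 q, 32.4% with equal lists and 30.1% to 39.4% without each library. Causes were not tested. Unknown depth limits what a missing call can show.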
